A study of Homo sapiens with 6 samples.

Results

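The 9 enzymes described here act in the mevalonate pathway between its entry and lanosterol, the first sterol. They are HMGCS1, MVK, PMVK, MVD, IDI1, FDPS, FDFT1, SQLE and LSS, and they were picked by name from the route and are given in its order. The deposited table holds 81496 gene symbols, and each of the 9 has 1 probe set in it. Transcript levels had been measured in total RNA of the cell line MCF10.AT1 and of MCF10.AT1-R, its resistant derivative, on 6 Clariom D microarrays, 3 for each. MCF10.AT1 descends from the human breast epithelial line MCF10A, carries an activated HRAS and is fluvastatin sensitive. The study treats it as preneoplastic, the labels give breast cancer as its cell type, and its samples are labelled untreated. MCF10.AT1-R was selected from it with the statin fluvastatin at 1, 5 and up to 20 µM and is fluvastatin resistant. The labels give this dosing and the same medium for the samples of both lines, and the resistant cells are represented by a single derived line. Whether MCF10.AT1-R was in fluvastatin when its RNA was taken is not given in the sources used here, so an effect of drug present in the culture and a lasting difference between the lines cannot be told apart.

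Cells make cholesterol and isoprenoids from acetyl-CoA through mevalonate. Statins such as fluvastatin block the pathway near its start. When sterols run low, the transcription factor SREBP2, the product of SREBF2, is released by proteolysis and binds sterol regulatory elements in the promoters of the enzyme genes, usually beside NF-Y and Sp1. The isoprenoid branch that leaves at farnesyl diphosphate feeds protein prenylation, dolichol and coenzyme Q, and farnesylation is needed by RAS proteins, which makes the pathway of interest in HRAS-transformed breast cells. The question of the comparison was at which steps of the route the resistant cells differed from their parental cells.

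The promoters of 4 members are shown because these genes had the largest (HMGCS1 and MVD) and the smallest (MVK and PMVK) differences among the members with a RefSeq promoter in the table used. Each is the 250 bases before a transcription start in RefSeq, build GRCh38.p14, written 5′ to 3′ along the gene. HMGCS1 lies at chr5:43313413-43313662 on the minus strand, MVD at chr16:88663092-88663341 on the minus strand, MVK at chr12:109573544-109573793 on the plus strand and PMVK at chr1:154936720-154936969 on the minus strand. Capitals mark matches, on either strand, to a short form of the sterol regulatory element (TCACNCCA), to the NF-Y box (CCAAT) and to the GC box bound by Sp1 (GGGCGG).
HMGCS1: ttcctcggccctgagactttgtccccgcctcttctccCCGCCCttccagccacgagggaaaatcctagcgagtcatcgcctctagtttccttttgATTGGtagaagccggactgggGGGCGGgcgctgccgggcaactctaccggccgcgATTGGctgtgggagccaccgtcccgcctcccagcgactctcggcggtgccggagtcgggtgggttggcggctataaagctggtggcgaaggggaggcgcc
MVD: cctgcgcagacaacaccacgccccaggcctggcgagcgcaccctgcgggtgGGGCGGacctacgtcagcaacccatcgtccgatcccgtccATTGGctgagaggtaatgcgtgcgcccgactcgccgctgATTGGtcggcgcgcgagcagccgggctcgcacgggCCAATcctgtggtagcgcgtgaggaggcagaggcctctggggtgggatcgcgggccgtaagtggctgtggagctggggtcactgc
MVK: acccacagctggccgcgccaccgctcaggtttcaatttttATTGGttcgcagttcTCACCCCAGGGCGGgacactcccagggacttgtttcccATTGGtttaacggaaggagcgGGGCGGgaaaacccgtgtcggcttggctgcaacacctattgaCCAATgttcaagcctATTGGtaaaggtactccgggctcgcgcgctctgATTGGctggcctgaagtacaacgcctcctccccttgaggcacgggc
PMVK: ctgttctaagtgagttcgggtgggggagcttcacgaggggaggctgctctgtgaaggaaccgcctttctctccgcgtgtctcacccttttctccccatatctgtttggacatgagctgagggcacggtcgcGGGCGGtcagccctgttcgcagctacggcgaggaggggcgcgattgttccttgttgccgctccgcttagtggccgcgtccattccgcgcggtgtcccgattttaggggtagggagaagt

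Of the 9 members 7 had a promoter window in the RefSeq table, from 250 bases before to 50 after the start, with 10 windows in all because HMGCS1 has 2 listed starts and IDI1 has 3. The NF-Y box occurred in a window of 6 of these 7 genes, PMVK being the exception, against 39.7% of the 27305 genes in the table. MVK had 5 NF-Y boxes, MVD and FDPS 3 each, and LSS 1. The GC box occurred in all 7, against 48.3% of genes. MVK was the only member with a match to the short sterol regulatory element, beginning at position -195 from its start and directly followed by a GC box, against 4.8% of genes. No matches shared bases within the 4 printed sequences. Only this exact form of the element was searched, so elements of other sequence were not counted. PMVK, without an NF-Y box, had the smallest expression difference of the 7 genes. MVK, with the most boxes in a window, had the next smallest, and MVD, with 3, had the largest. Whether motif counts go with the differences was not tested.

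**Figure D1:**
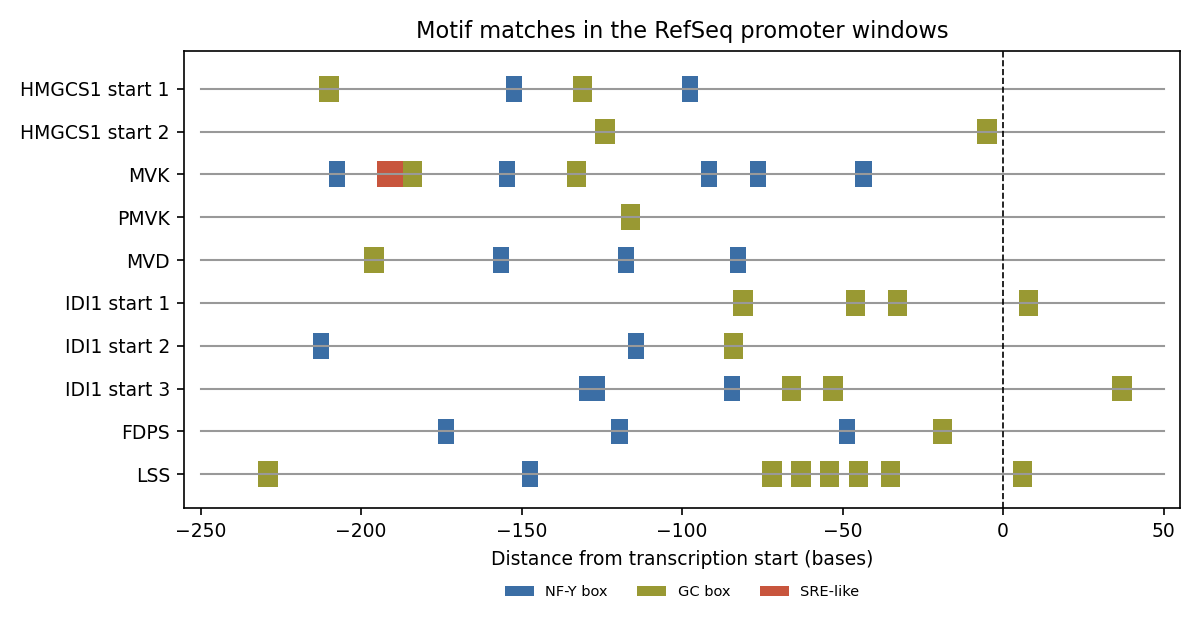
Matches to the NF-Y box, the GC box and the short sterol regulatory element (SRE-like) in the RefSeq promoter windows of 7 members, with distance from the transcription start in bases on the x axis and 1 line per listed start. The PMVK window holds 1 match, a GC box, and the MVK window holds 8.

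Array A03, an MCF10.AT1 array that the study removed as an outlier, is kept apart below. The array names give a letter and no line, and A was matched to MCF10.AT1 and B to MCF10.AT1-R through the number of arrays the study kept of each. The remaining 5 arrays, A01 and A02 of MCF10.AT1 and B02, B03 and B04 of MCF10.AT1-R, correlated with each other at Pearson's r of 0.967 to 0.977 across 135750 transcript probe sets, and A03 correlated with them at 0.779 to 0.795. Values are log2 RMA values, so a difference of 1 is a doubling. Of these probe sets 51457 passed a filter on low and invariant values and were tested with limma. At a false discovery rate (FDR) of 5%, 620 of them, or 1.2%, passed, 390 of them (0.758%) with higher expression in MCF10.AT1-R. Invariance was judged by the SD over the 5 arrays of both lines, so a difference between the lines helped a probe set to be tested. Within the lines, every member but PMVK had a residual SD below the limit of 0.18. IDI1, at 0.02, thus entered the test through its difference between the lines, whereas FDFT1, at 0.07, did not enter. The counts and adjusted p after this filter therefore depend in part on the differences themselves. The filter removed FDFT1, whose arrays varied too little, and its values come from limma without a filter. All 9 members read above the 95th percentile of the negative control probe sets, 2.88 to 3.14, on each of the 5 arrays, with a lowest value of 4.84.

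HMGCS1 and MVD were higher in MCF10.AT1-R and were the only members past FDR 5%, 2 of the 8 tested. Of all tested probe sets 0.758% were called in that direction. Both genes also passed with the filter on low values alone, which does not use the SD (adjusted p = 0.0211 and 0.0145 from limma). The values of 8 of the 9 members in all 3 MCF10.AT1-R arrays lay above those in both MCF10.AT1 arrays, and the exception was PMVK. Such an order held for 12.9% of all tested probe sets. The log2 differences of the 9 members ranged from 0.17 to 1.69 with a median of 0.91, and the median over all tested probe sets was -0.01. They fell into 3 levels. MVD and HMGCS1 differed by 1.57 to 1.69, IDI1, LSS and FDPS by 0.91 to 1.02, and SQLE, MVK, FDFT1 and PMVK by 0.17 to 0.40.

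**Figure D2:**
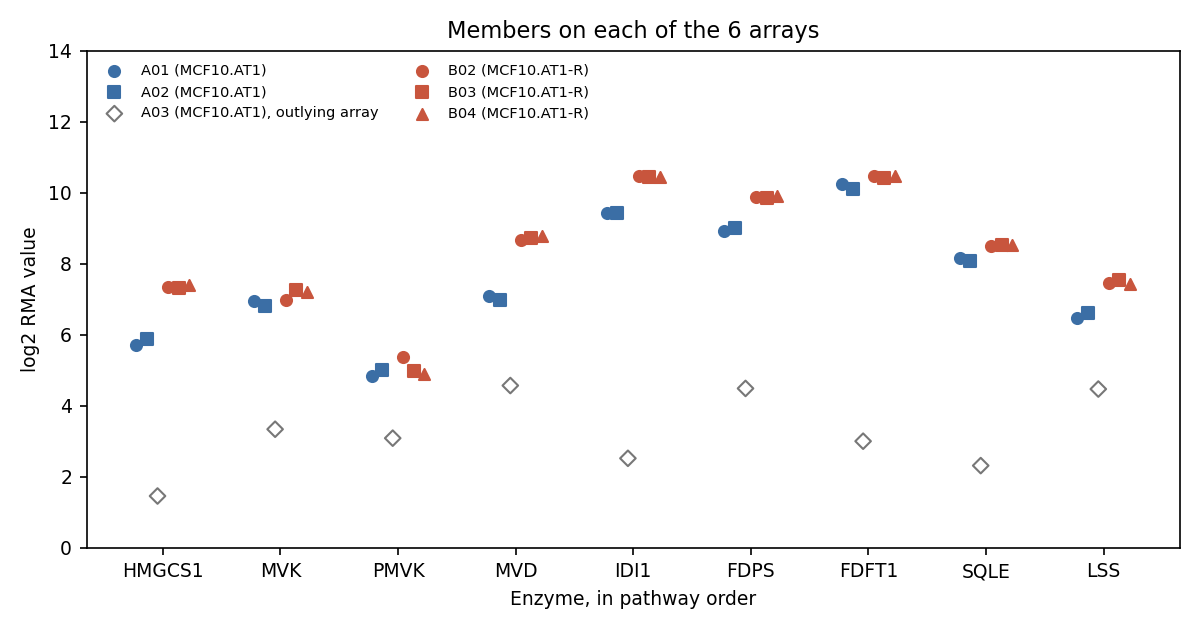
Log2 RMA value of each member (y axis) on each of the 6 arrays, in pathway order (x axis), with MCF10.AT1 in blue, MCF10.AT1-R in red and A03 as open diamonds. The MCF10.AT1-R arrays lie above A01 and A02 for every member but PMVK, and A03 lies below the other 5 arrays for all 9.

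HMGCS1, the cytosolic synthase that joins acetyl-CoA and acetoacetyl-CoA into HMG-CoA, is the entry to the route. It read 5.71 and 5.87 on A01 and A02, and 7.35, 7.31 and 7.42 on B02, B03 and B04. The lowest resistant array thus lay 1.45 above the highest parental array. HMGCS1 rose by 1.57 on the log2 scale (SE 0.31, limma adjusted p = 0.000121), or 2.97-fold with a 95% interval of 1.95 to 4.54. Of the tested probe sets 0.276% had a higher change.

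MVK and PMVK are the kinases that phosphorylate mevalonate in turn. MVK read 6.94 and 6.80 in MCF10.AT1, and 6.98, 7.27 and 7.22 in MCF10.AT1-R. The lines were separated by only 0.04, less than the distance between replicates of either line. Its log2 change of 0.29 (adjusted p = 0.840 from limma) had a 95% interval from -0.33 to 0.90. PMVK read 4.84 and 5.00 in MCF10.AT1, and 5.37, 4.99 and 4.90 in MCF10.AT1-R. B02 was the high array for PMVK and the other resistant arrays lay within the parental range, so the lines overlapped. Its log2 change was 0.17 (adjusted p = 0.901 from limma), with an interval from -0.45 to 0.78, so a change of up to 1.71-fold was within the error.

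MVD decarboxylates the product of the kinases to isopentenyl diphosphate, the building block of isoprenoids. It read 7.10 and 6.98 in MCF10.AT1, and 8.68, 8.73 and 8.79 in MCF10.AT1-R. With 1.58 between the nearest arrays of the lines, this was the widest separation among the members. MVD rose by 1.69 (SE 0.31, limma adjusted p = 1.82e-05), or 3.23-fold with a 95% interval of 2.12 to 4.94, and 0.237% of tested probe sets had a higher change.

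IDI1 interconverts isopentenyl and dimethylallyl diphosphate, and FDPS joins them into farnesyl diphosphate. IDI1 read 9.43 and 9.44 in MCF10.AT1, and 10.49, 10.45 and 10.45 in MCF10.AT1-R. The SDs of 0.01 (n = 2) and 0.02 (n = 3) were the smallest of all members, and the log2 difference was 1.02, or 2.03-fold with an interval of 1.33 to 3.11 (adjusted p = 0.0714 from limma). FDPS read 8.93 and 9.003 in MCF10.AT1, and 9.89, 9.84 and 9.90 in MCF10.AT1-R. Its log2 difference was 0.91, or 1.88-fold with an interval of 1.23 to 2.87 (adjusted p = 0.164 from limma), with 0.84 between the nearest arrays. Neither gene passed the threshold, although 0.871% of tested probe sets had a higher change than IDI1 and 1.18% a higher one than FDPS.

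Farnesyl diphosphate is where sterols and the other isoprenoids part. FDFT1, squalene synthase, takes the first step that is committed to sterols. It read 10.26 and 10.10 in MCF10.AT1, and 10.48, 10.41 and 10.49 in MCF10.AT1-R. The lines did not overlap, but the log2 difference was 0.27 (adjusted p = 0.839 from limma without a filter), with an interval from -0.14 to 0.69. SQLE, which epoxidises squalene and is known as a rate-limiting enzyme of the sterol branch, read 8.15 and 8.07 in MCF10.AT1. In MCF10.AT1-R it read 8.49, 8.52 and 8.53. Its log2 difference was 0.40, or 1.32-fold (adjusted p = 0.809 from limma), with an interval from -0.21 to 1.01.

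LSS, the cyclase that closes the rings of lanosterol, read 6.47 and 6.62 in MCF10.AT1, and 7.46, 7.55 and 7.43 in MCF10.AT1-R. The lines were 0.81 apart at their nearest arrays. The log2 difference was 0.93, or 1.91-fold with an interval of 1.25 to 2.92 (adjusted p = 0.140 from limma). The intervals of IDI1, FDPS and LSS, which are not adjusted for the number of tests, lay wholly above 1-fold, whereas none of these genes passed after adjustment over all tested probe sets. Without each array in turn and under the other alternatives without A03, the log2 difference of IDI1 lay between 0.98 and 1.03, that of FDPS between 0.87 and 0.95 and that of LSS between 0.86 and 1.01.

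**Figure D3:**
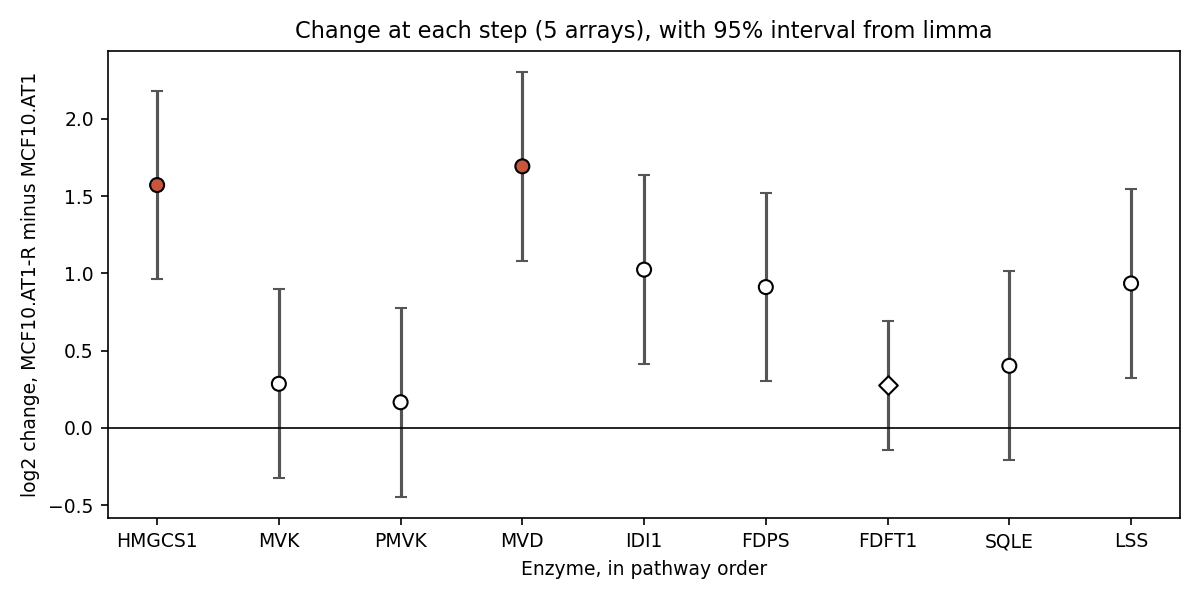
Log2 change between MCF10.AT1-R and MCF10.AT1 over the 5 arrays (y axis) for each member in pathway order (x axis), with the 95% interval from limma. Filled circles (HMGCS1 and MVD) passed FDR 5%, open circles did not, and the diamond is FDFT1 from the fit without a filter.

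Limma drew the variance of all tested probe sets to a common SD of 0.34, and the smallest change it called had a size of 1.07. The members varied less than this, with residual SDs of at most 0.21 (PMVK), so the replicates of IDI1, FDPS and LSS were closer than the test assumed. When the variance was allowed to follow the expression level, 5 of the 8 tested members passed (HMGCS1, MVD, IDI1, FDPS and LSS), against 1.69% of all tested probe sets called higher in MCF10.AT1-R. SQLE had an adjusted p of 0.0527 in that fit. With the filter on low values alone and this variance model, 6 of 9 passed, SQLE being added at an adjusted p of 0.0442 from limma, while FDFT1 had 0.0667. Of all 67875 probe sets tested in that fit, 764 were called higher in MCF10.AT1-R. MVK and PMVK passed in none of these fits, with adjusted p of 0.487 or more from limma.

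**Figure D4:**
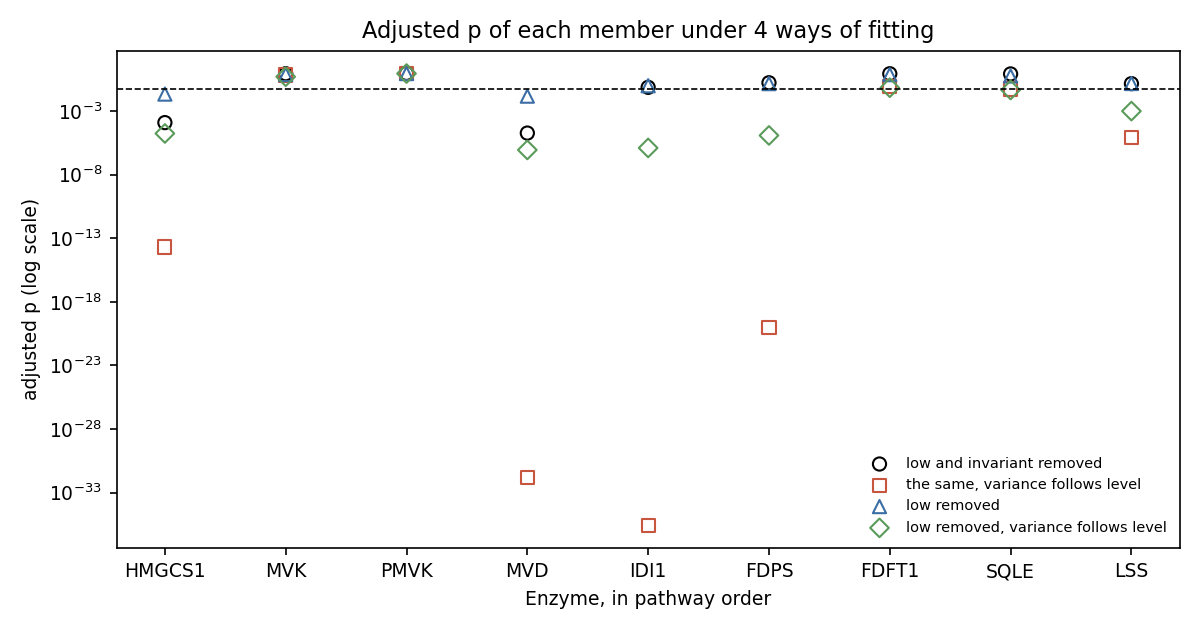
Adjusted p from limma (y axis, log scale) of each member in pathway order (x axis) under 4 fits that differ in the filter and in the variance model, with a dashed line at 0.05. HMGCS1 and MVD lie below the line in all 4 fits, and MVK and PMVK lie above it in all 4. FDFT1 also lies above it, with a value from a fit without the filter on invariant probe sets throughout.

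Because the members were measured on the same arrays, the change of each enzyme was also set against the listed enzyme before it within each array. The level of different probe sets cannot be compared, but the difference between 2 of them within an array can be followed from line to line. The log2 change of MVK minus that of HMGCS1 was -1.29, and the within-array differences of the lines did not overlap, at 0.94 to 1.23 in parental and -0.37 to -0.04 in resistant arrays. The change of MVD minus that of PMVK was 1.53, with within-array differences of 1.98 to 2.26 and of 3.32 to 3.89. The kinases MVK and PMVK, between which the lines overlapped, thus stood between steps with larger changes. After MVD the change of each step minus that of the step before was -0.67 for IDI1, -0.11 for FDPS, -0.64 for FDFT1, 0.13 for SQLE and 0.53 for LSS, each without overlap of the lines. How often other pairs of probe sets separate the lines in this way was not computed. With 2 and 3 arrays, an exact permutation test of such a separation cannot give a one-sided p below 0.1.

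Ordered by size, the members returned the 3 levels named above, because those levels were these same differences cut at their largest gaps. HMGCS1 exceeded IDI1 by 0.55 and FDPS exceeded SQLE by 0.51, and at both of these gaps the within-array differences of the lines did not overlap. For the other 6 neighbours in that order (MVD and HMGCS1, IDI1 and LSS, LSS and FDPS, SQLE and MVK, MVK and FDFT1, FDFT1 and PMVK) they overlapped, with differences of 0.01 to 0.12, so the order of these neighbours was not beyond the spread of the arrays. Within a level, members that are not neighbours in size could still be apart, as FDPS from IDI1 and SQLE from FDFT1 in the comparison of successive enzymes. These comparisons are descriptions, and no test of the difference between members was made.

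On A03 all 9 members read lower than on every other array, an order held by 20.2% of all tested probe sets. HMGCS1 read 1.46, MVK 3.34, PMVK 3.09, MVD 4.57, IDI1 2.52, FDPS 4.49, FDFT1 3.00, SQLE 2.32 and LSS 4.47 there. Compared with the mean of A01 and A02, the values on A03 were lower for all 9, from -1.83 for PMVK to -7.18 for FDFT1 with a median of -4.33, whereas the median over all tested probe sets was 0.30. HMGCS1, PMVK, IDI1, FDFT1 and SQLE lay below the 95th percentile of the negative controls on that array, 3.15. With A03 counted as MCF10.AT1, no member passed FDR 5% in limma over 6 arrays.

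Near-copies can share probe sequence with a member, and those examined were pseudogenes of FDPS and the paralog of IDI1. No other near-copies of the members were examined. FDPS has many pseudogenes, and 7 of them have a probe set here. Of these 4 lay within the negative controls on all 5 arrays (FDPSP1, FDPSP2, FDPSP3 and FDPSP4). FDPSP8, the pseudogene with the largest difference, read 3.89 and 4.71 in MCF10.AT1 and 4.66, 5.12 and 4.92 in MCF10.AT1-R, with overlapping lines and a log2 difference of 0.60 (adjusted p = 0.621 from limma). None of the 5 FDPS pseudogenes that were tested passed FDR 5%, and FDPSP1 and FDPSP2 were removed by the filter. IDI2, the paralog of IDI1, read at most 3.11 and lay within the negative controls on all 5 arrays.

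The enzymes that continue from lanosterol to cholesterol differed in the same direction as the members for 9 of 10 genes, with a median log2 difference of 0.76. Of all tested probe sets 48.6% had a positive difference. TM7SF2, a sterol reductase, was higher by 1.27 (adjusted p = 0.00642 from limma) and was the only one of the 10 past FDR 5%. LBR, which is a sterol reductase with the same activity and also a protein of the inner nuclear membrane, had a mean of 6.47 over the parental and 5.55 over the resistant arrays, a log2 difference of -0.92 (adjusted p = 0.156 from limma). When the variance followed the level, 8 of the 10 passed with higher and LBR with lower expression in MCF10.AT1-R (adjusted p = 0.00272 from limma for LBR). In that fit 1.69% of all tested probe sets were called higher in MCF10.AT1-R.

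The genes before HMGCS1 and those of the side branches went both ways. Among 12 genes for acetoacetyl-CoA formation, prenyl transfer, dolichol and coenzyme Q, none of the 9 tested passed FDR 5% in limma, 4 of the 12 had positive and 8 negative differences, and the median difference of the 12 was -0.09. ACAT2, which makes the acetoacetyl-CoA that HMGCS1 uses, had the largest positive difference of this list, from a mean of 6.79 in parental to 7.45 in resistant arrays, a log2 difference of 0.67 (adjusted p = 0.516 from limma), and was the only 1 of the 9 to pass when the variance followed the level (adjusted p = 0.00521 from limma). ACAT1, its mitochondrial counterpart, differed by -0.34. GGPS1, which extends farnesyl to geranylgeranyl diphosphate, differed by 0.25. IDI2 had the lowest difference, -0.84, at background level.

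Of 7 genes for sterol sensing, none of the 5 tested passed FDR 5% in limma, and the median difference of the 7 was -0.05. SREBF2 itself read 7.79 and 7.67 in MCF10.AT1, and 7.93, 7.82 and 7.82 in MCF10.AT1-R, a log2 difference of 0.13 with an interval from -0.29 to 0.55 (limma without a filter). INSIG1, which holds SREBP in the endoplasmic reticulum and is itself an SREBP target, had the largest positive difference, from a mean of 6.28 in parental to 7.15 in resistant arrays (0.88, adjusted p = 0.205 from limma), and MBTPS1, a protease that cleaves SREBP, had the lowest at -0.37. INSIG1 was the only 1 of the 5 to pass when the variance followed the level (adjusted p = 0.000209 from limma). Of 5 enzymes of fatty acid synthesis, which depend on SREBP in part, ACLY was higher by 1.17 (adjusted p = 0.0190 from limma). ACLY supplies cytosolic acetyl-CoA to both routes. All 5 had MCF10.AT1-R arrays above MCF10.AT1 arrays, an order held by 12.9% of all tested probe sets. The median difference was 0.63, and the lowest was ACACA at 0.30. When the variance followed the level, 4 of the 5 passed with higher expression in MCF10.AT1-R (ACLY, FASN, SCD and ELOVL6), against 1.69% of all tested probe sets. The calls of TM7SF2 and ACLY were both lost without A01 (adjusted p = 0.283 and 0.282 from limma) and without A02 (0.0967 and 0.286), and that of ACLY also without B03 (0.0508). Both were lost as well with the filter on low values alone (0.0804 and 0.0612) and without a filter (0.103 and 0.0877).

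**Figure D5:**
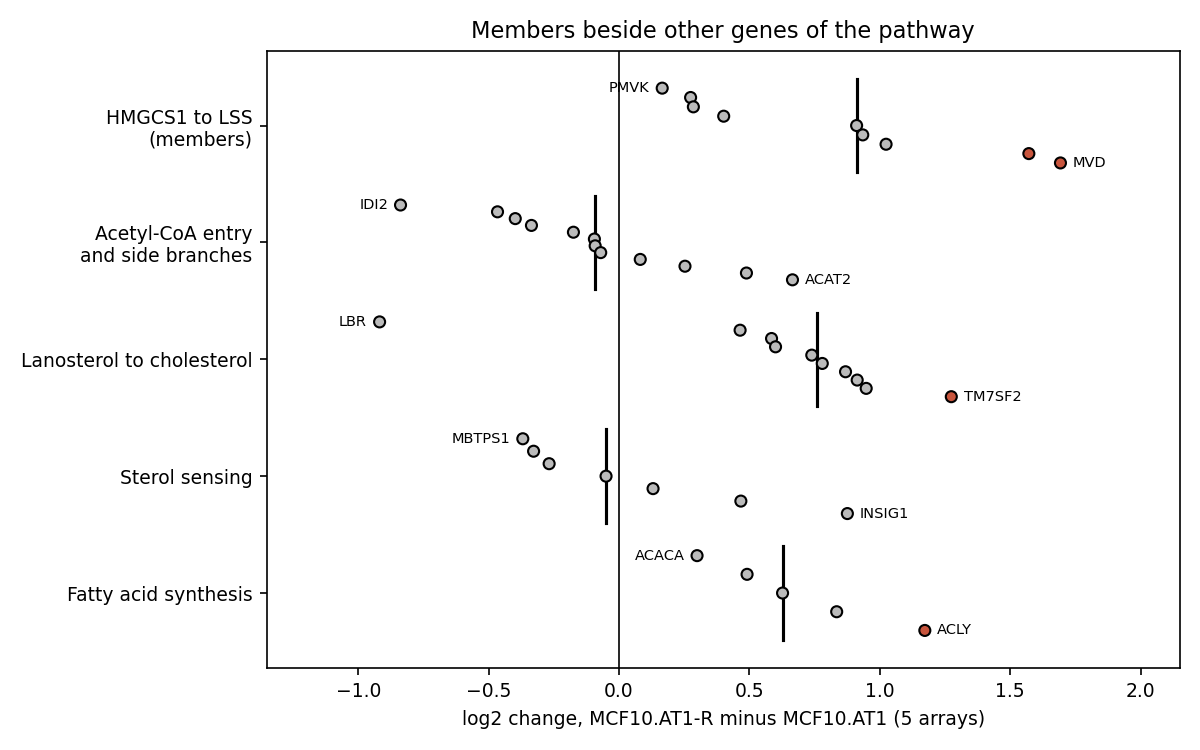
Log2 change between the lines over the 5 arrays (x axis) for the members and for 4 lists of other genes of the pathway (y axis), with a vertical bar at the median of each list and filled red points for genes past FDR 5%. The medians are 0.91 for the members, 0.76 for the enzymes after lanosterol, 0.63 for fatty acid synthesis, -0.05 for sterol sensing and -0.09 for the entry and side branches.

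Markers of cell identity also moved between the lines. All 8 markers of basal breast epithelium read above the negative controls on all 5 arrays, and 5 of the 7 tested rose past FDR 5%, among them KRT5 and TP63, and the summed log2 level of the list was 56.2 to 56.4 in MCF10.AT1 and 69.7 to 70.2 in MCF10.AT1-R. Of 9 genes of cornified keratinocytes with a probe set, 5 of the 7 tested rose past FDR 5% (KRT1, IVL, CDSN, SPRR2D and KLK7). The other tested genes, KRT10 and SPRR1B, were higher by 0.58 and 1.03 without passing. The sum of this list was 28.2 to 29.5 in MCF10.AT1 and 43.8 to 46.9 in MCF10.AT1-R. FLG, also of this list, lay within the negative controls on all 5 arrays. Of 7 markers of hormone receptor positive luminal cells, KRT8 and ERBB3 rose past FDR 5%, and PGR lay within the negative controls throughout. KRT18 (0.85), ESR1 (-0.43) and FOXA1 (-0.18) did not pass, and GATA3 (0.18) was not tested. The sum of the list was 34.2 to 34.9 in MCF10.AT1 and 37.4 to 38.3 in MCF10.AT1-R. The lists for fibroblasts, leukocytes and endothelium each held 1 gene that fell past FDR 5% (DCN, CD14 and PECAM1). The sums of these lists were 29.6 to 30.1 against 27.2 to 29.1, 12.02 to 13.9 against 11.6 to 12.04 and 13.4 to 13.8 against 11.6 to 12.7. LUM, PDGFRB, PTPRC and KDR lay within the negative controls. COL1A1, COL1A2, COL3A1, CD3E and VWF read above the negative controls on all 5 arrays. Their log2 differences ranged from -0.16 (COL3A1) to 0.15 (COL1A1), and none passed FDR 5%. With the filter on low values alone the calls of KRT8 (adjusted p = 0.0898 from limma), KRT1 (0.0966), CDSN (0.199), CD14 (0.115) and PECAM1 (0.123) were lost. The part of these differences in those of the members was not tested. In RNA of whole cultures, more cells of a type and more RNA per cell cannot be told apart.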

How the data were processed

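The authors deposited log2 expression values of 6 Clariom D arrays, 3 per line, computed with RMA (packages affy and oligo). RMA corrects background, equalises the distributions of all 6 arrays, A03 included, and summarises probes into probe sets. Versions of these packages and the genome build are not given in the sources used here. Array names carry a letter and a number: A03 was removed by the study, which then showed 2 MCF10.AT1 and 3 MCF10.AT1-R arrays, so the letter A was taken as MCF10.AT1 and B as MCF10.AT1-R.

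Control probe sets (2995 of 138745 rows) were left out of the comparison. As the methods of the study do not state limits for low and invariant genes, a probe set entered the test if it averaged more than the median of 1.88 across the 5 arrays and had an SD above the lowest 25% (0.18). The test was limma (version 3.58.1, R 4.3.3), with lmFit, eBayes and p-values adjusted by Benjamini-Hochberg over all 51457 (two-sided, FDR 5%). In 1 simulated data set these steps made more false calls than the nominal rate. A symbol with several probe sets is represented by the probe set that was highest on average. Intervals come from the same fit. The arrays are biological replicates per the labels, and their number limits the precision.

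The members and lists were chosen with earlier results of these data known, so no list was tested. Named are all members, the genes of each other list past FDR 5% and at its extremes, and the 5 symbols with a profile nearest to the mean of the members. SREBF2, GGPS1, the markers and the pseudogenes were named after their values were seen. Motifs were searched in RefSeq promoters (GRCh38.p14). Alternatives changed the arrays, the filter, the variance model, the normalization, array weights, the threshold and the choice of probe set.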

Additional observations from a re-analysis of the deposited data

How the results depend on the processing

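HMGCS1 and MVD passed FDR 5% under every alternative run except the one that added A03, where 0 members, 44 probe sets and 0 other pathway genes passed and the median log2 change of the members was 2.40. With each array left out in turn, the count of members past the threshold was 2 each time, and the median log2 change ranged from 0.86 to 0.95. Probe sets past FDR 5% then ranged from 280 to 575, with 315 without A01 and 280 without A02, and other pathway genes from 0 to 2, with 0 without A01 or A02 and 1 without B03. A line left with 1 array was assumed to vary like the other.

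The variance model and the filter moved the counts. When the variance followed the level, 5 members, 1377 probe sets and 15 other pathway genes passed. With the low-expression filter alone these were 2, 182 and 0, without a filter 2, 177 and 0, and with the low-expression filter and the variance following the level 6, 1086 and 15. The median log2 change of the members was 0.90 both after quantile normalization over the 5 arrays and with a common median per array. Array weights added IDI1, for 3 members, with 735 probe sets past FDR 5%. FDR 10% also added IDI1, for 3 members, and no count over all probe sets was made at that threshold. Of 126 values of single members under the alternatives, 116 kept their direction and their side of the threshold, 8 passed it newly, 2 lost it (HMGCS1 and MVD with A03) and 0 reversed. Each symbol of a member has 1 probe set, so averaging probe sets changed no member. No paired analysis was possible because the array names carry none of the replicate numbers of the labels.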

Other observations

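Among 36073 other gene symbols, the profile nearest to the mean of the 9 members over the 5 arrays was that of ATP6V0E1, a subunit of the proton pump of acidic vesicles, with a root mean square distance of 0.017 on the log2 scale. The mean of the members, set to 0 at the MCF10.AT1 mean, was 0.81 on B02, 0.80 on B03 and 0.81 on B04, and the log2 difference of ATP6V0E1 was 0.83. SCD, a fatty acid desaturase, followed at a distance of 0.031, SLC7A5, an amino acid transporter, at 0.036, FLII, an actin-binding protein, at 0.039 and CYP51A1, which acts on lanosterol, at 0.043. None of these 5 passed FDR 5% in limma (adjusted p from 0.259 to 0.340), and all 5 passed when the variance followed the level. The profile has 5 points and is set mostly by the difference between the lines.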
